A study of Mus musculus with 6 samples.

Results

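The genes described here are named after proteins of the cytosolic ribosome and were measured as read counts by RNA sequencing of mouse pancreatic islets. They were chosen by name: a row of the count table was taken when its symbol was Rps or Rpl followed by a number, with an optional final a, l or x, or was Rpsa, Rplp0, Rplp1 or Rplp2. This gave 83 of the 40840 rows, 32 genes of the small subunit and 51 of the large subunit. RefSeq annotates 81 of them as protein-coding, and Rps4l and Rpl6l as pseudogenes. GENCODE also lists Rpl32l as a pseudogene. The series is about the role of IGF2R in beta cells, and it holds 3 libraries labelled KO and 3 labelled WT, all on a C57BL/6J background. The labels give neither age nor sex, nor the way in which the gene was removed, nor whether each library came from an animal of its own. Every p-value below therefore measures only the spread among these 6 libraries, and that spread may be technical.

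A ribosome joins a small subunit, which reads the messenger RNA, to a large subunit, which forms the peptide bond. Each ribosome carries about equal numbers of most of its proteins, and their messenger RNAs usually begin with a short tract of pyrimidines, the 5′ terminal oligopyrimidine tract, through which the growth kinase mTORC1 controls their translation. Beta cells translate large amounts of preproinsulin, and insulin-like growth factors act upstream of mTORC1. IGF2R, the cation-independent mannose 6-phosphate receptor, takes up insulin-like growth factor 2 and carries lysosomal enzymes to endosomes.

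The tract is shown first because it is the sequence feature for which these genes are best known. The RefSeq annotation of GRCm38.p6 gave a start site for 61 of the 83 members. Each line below is 30 bases on the coding strand, 10 before the annotated start and 20 from it, with the run of C and T that covers the start in capitals. The 7 genes were picked from those that passed the rule below, to cover both subunits and both directions of the fold changes described later.
Rps6: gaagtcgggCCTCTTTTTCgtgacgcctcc
Rps18: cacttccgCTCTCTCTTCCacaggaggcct
Rps27: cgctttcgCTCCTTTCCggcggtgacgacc
Rplp2: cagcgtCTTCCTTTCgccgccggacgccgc
Rpl14: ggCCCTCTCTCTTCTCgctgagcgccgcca
Rpl15: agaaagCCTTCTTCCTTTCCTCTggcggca
Rpl35: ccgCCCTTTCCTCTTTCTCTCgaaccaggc
In GRCm38.p6 these windows are chr4:86857348-86857377 (minus strand) for Rps6, chr17:33955646-33955675 (minus strand) for Rps18 and chr3:90213629-90213658 (minus strand) for Rps27. They are chr7:141447641-141447670 (plus strand) for Rplp2 and chr9:120571507-120571536 (plus strand) for Rpl14. They are chr14:18270967-18270996 (minus strand) for Rpl15 and chr2:39005112-39005141 (minus strand) for Rpl35. A C at the annotated start followed by at least 4 bases that were each C or T was found in 14 of 61 members (23.0%), against 813 of 27025 genes in the whole table of start windows (3.01%). When a run of at least 8 such bases, led by C, was allowed to begin up to 10 bases from the start, 34.4% of members and 8.09% of all genes held it. The search was on the coding strand only. An annotated start can lie some bases away from the one used in islets, so a window without a match says only that these letters are not at this position.

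The libraries were of similar depth. Total counts ran from 16689319 to 18956235 in KO and from 16943764 to 18757633 in WT. Igf2r had 49.3, 48.1 and 48.4 CPM (counts scaled by library size) in KO, against 95, 128 and 115 CPM in WT, and fell by 1.21 on the log2 scale (SE 0.0946, edgeR adjusted p 0.00261). It did not pass without KO library 1 (adjusted p 0.13 by edgeR), without KO library 2 (0.192) and with the acinar level as a covariate (0.277), at log2 fold changes of -1.22, -1.20 and -1.25. Markers of islet cells, among them the insulin and glucagon genes, took 21.1% to 22.4% of counts in KO and 18.6% to 21.3% in WT. The 27 marker genes of acinar cells, the digestive-enzyme cells around the islets, took 0.108%, 0.280% and 0.0996% of counts in KO, against 1.81%, 1.90% and 0.311% in WT. WT libraries 1 and 2 thus stood apart from the other 4 in acinar RNA. Every WT library also had a higher acinar share than every KO library. A fit with the acinar level as a covariate therefore cannot cleanly separate that level from genotype. Markers of macrophages, endothelium, stellate cells and red cells were each at 0.109% or less in every library, and none of the lists had a gene at 0 in all 6. In bulk tissue, fewer cells of a type and less RNA per cell cannot be told apart.

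No cytosolic ribosomal protein gene passed the test between genotypes, and the set as a whole sat slightly higher in KO. Of the 83 members, 77 had enough counts to be tested. edgeR's quasi-likelihood test called 0 of them at an adjusted p under 0.05, against 2 of 16240 genes over the whole table (0.0123%), both lower in KO. The log2 fold change, KO over WT, was above 0 for 69 of the 77 members (89.6%) and for 50% of all genes tested. Its median was 0.069 over the members, which is a ratio of 1.05, and 5.34e-05 over all genes tested. The quartiles of the members were 0.041 and 0.11, and the range was -0.13 for Rpl3l to 0.34 for Rps4l. The smallest adjusted p of a member was 0.192. DESeq2 gave an adjusted p to 69 of the members and called 1 of them. Over the whole table it called 62 of the 6076 genes with an adjusted p. By limma-voom 0 members were called, against 1 of 16240 genes. At an unadjusted p under 0.05 there were 11 members higher in KO (14.3%), against a background of 5.19% of all genes, and 0 lower, against 5.8%. The values of the 3 KO libraries were all above those of the 3 WT libraries for 4 members (5.19%), namely Rps4l, Rps2, Rps26 and Rpl22, where the share over all genes was 8.02%. The reverse held for 0 members, against 7.69% of all genes.

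The difference was small and bounded. The 95% interval of the log2 fold change lay within 0.3 of 0 for 64 of the 77 members and within 0.5 for 76, and the median SE was 0.065. Both subunits showed it. In the small subunit 30 of 31 tested genes had a higher value in KO, all but Rps27l, and the median was 0.073. In the large subunit 39 of 46 did, with a median of 0.069.

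**Figure D1:**
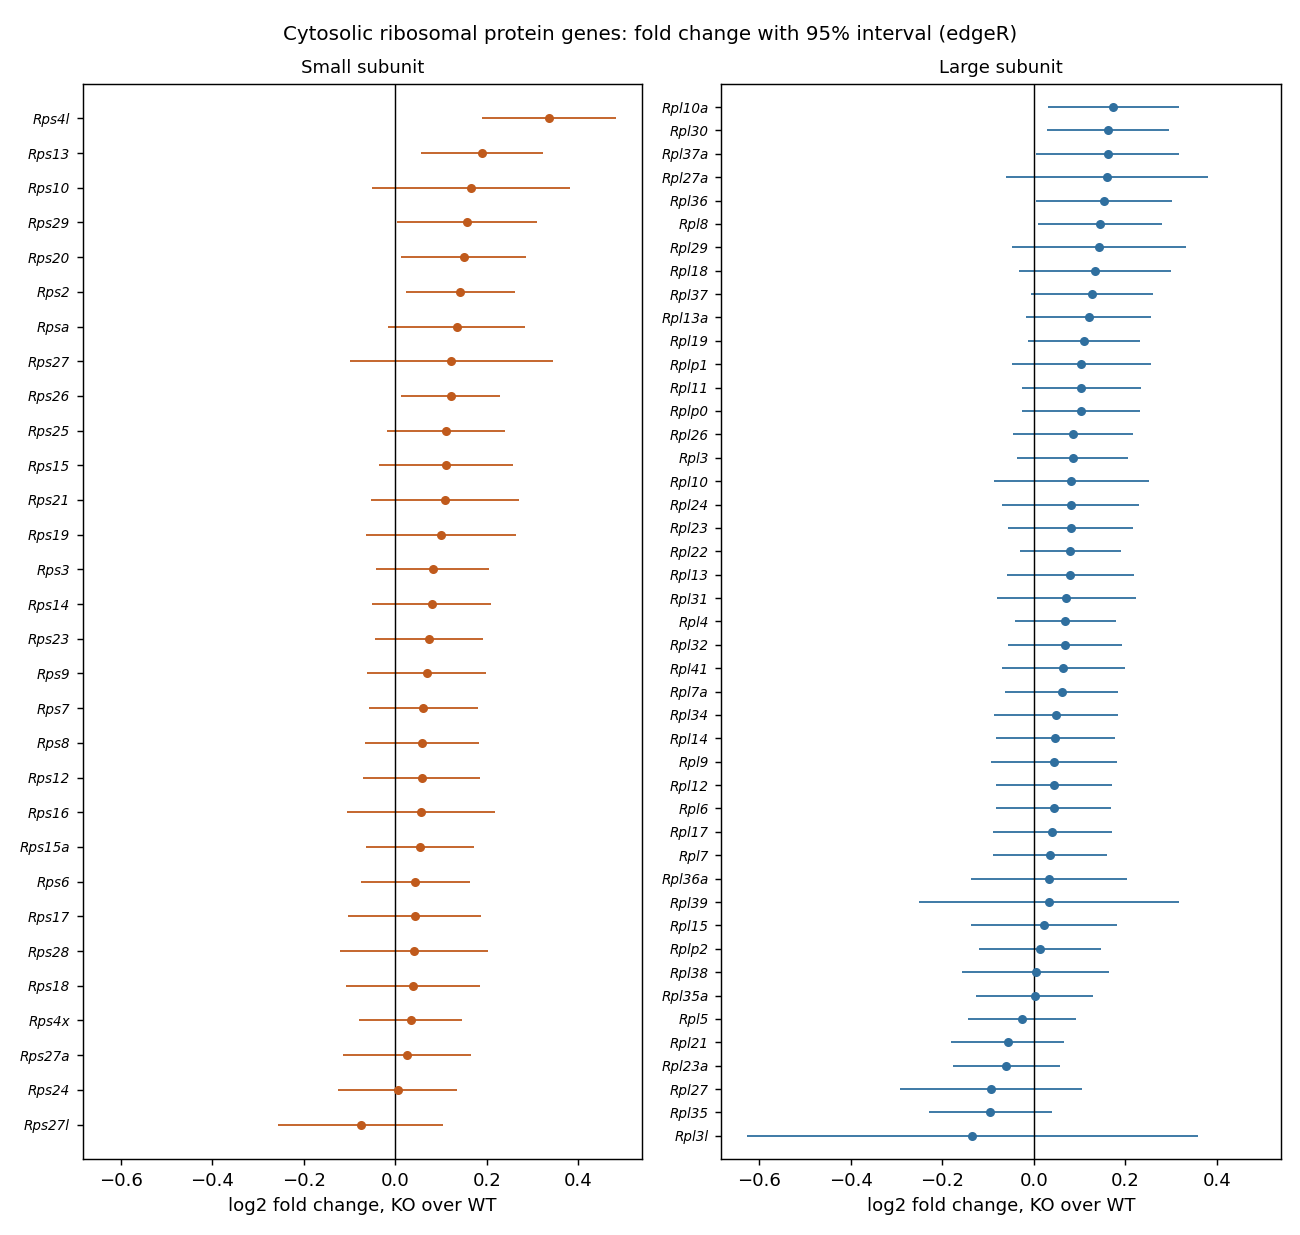
Log2 fold change, KO over WT, of 75 of the 77 tested ribosomal protein genes (points) with its 95% interval from edgeR (line), small subunit on the left and large subunit on the right, sorted by value. Of the points, 68 lie to the right of 0, most intervals cross 0, and Rps4l at 0.34 lies farthest to the right.

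Library by library, the ribosomal protein genes moved together, and the genotypes overlapped. Summed over all 83, they took 1.03%, 1.13% and 1.17% of counts in the KO libraries, against 1.01%, 1.07% and 1.09% in the WT libraries. The means were 1.11 ± 0.0707% in KO and 1.05 ± 0.0418% in WT (SD, n = 3 each), and the groups overlapped, since KO library 1 was lower than WT libraries 2 and 3. Exact (Clopper-Pearson) 95% intervals of these shares, which cover counting error only, were at most 0.0103 percentage points wide, so the spread between libraries of a genotype was far beyond counting error. The median deviation of a member from its own mean over the 6 libraries, in log2 CPM, was -0.08, 0.075 and 0.091 in KO libraries 1 to 3, against -0.11, -0.011 and 0.0056 in WT libraries 1 to 3. When KO and WT libraries of the same column number were set side by side, a pairing that rests on the data and on no label, the share was higher in KO in 3 of 3 pairs, by 0.0236, 0.0664 and 0.0788 percentage points. The median deviation was also higher in KO in 3 of 3 pairs. The pairing was chosen from these same counts, so neither count of pairs is independent support. Set beside WT library 2 or 3, KO library 1 would be lower in both measures. WT library 1 held the lowest value of 51 members and KO library 1 that of another 15. KO libraries 2 and 3 held the highest value of 35 and 29. Over pairs of members the median correlation of their log2 CPM across the 6 libraries was 0.69, as a description of genes that share the same libraries and scaling. This correlation was not computed for another set of genes.

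**Figure D2:**
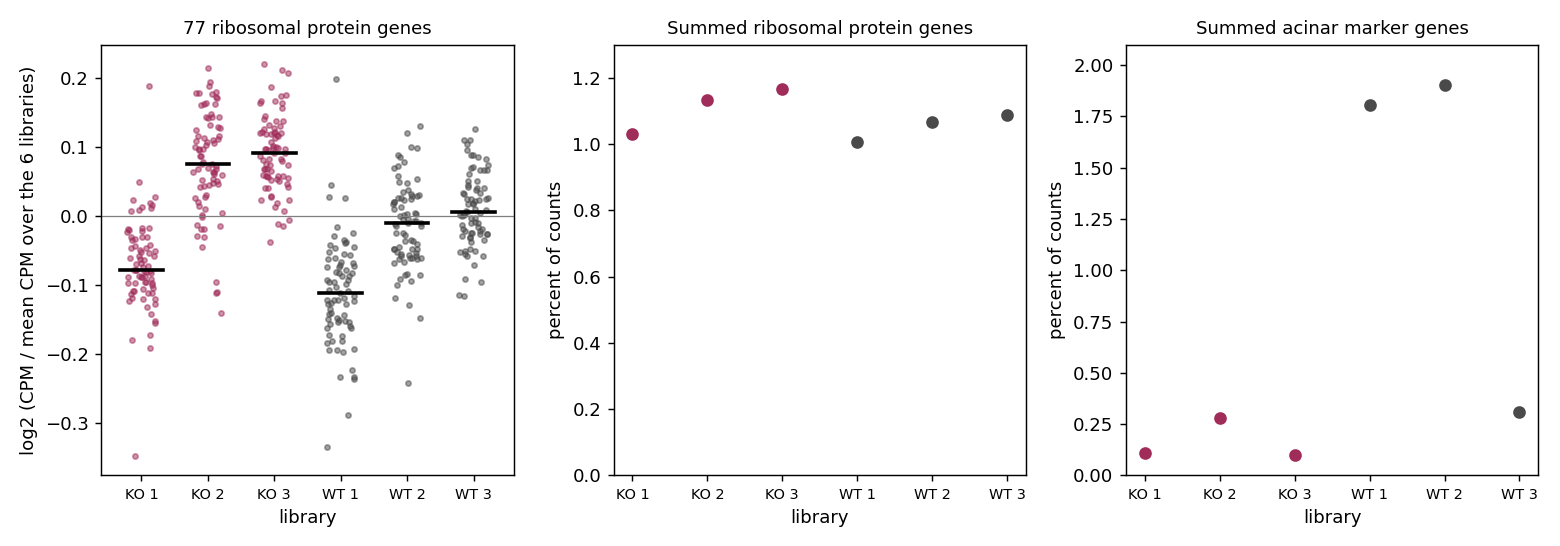
Left, log2 ratio of the CPM of each of the 77 tested ribosomal protein genes to its mean over the 6 libraries (points), with the median as a bar; middle, the percent of all counts in ribosomal protein genes; right, the percent of all counts in acinar marker genes, for each KO and WT library. KO library 1 (1.03%) lies among the WT libraries in the middle panel, and WT libraries 1 and 2 (1.81% and 1.90%) stand above the rest in the right panel.

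The size of the shift depended on single libraries. The median log2 fold change of the members was 0.12 without KO library 1, with 70 of 77 above 0, and 0.039 without WT library 1, with 60 above 0. Against WT library 3 alone, the WT library with the lowest acinar share, it was 0.029 with 50 of 77 above 0. With the acinar level as a covariate, a fit that cannot cleanly separate it from genotype, 53 of 77 were above 0 and the median was 0.05. Leaving the acinar genes out of the table gave 69 and 0.069. The edgeR test called 0 members in each of these settings. The ratio of large-subunit to small-subunit counts was 1.743, 1.738 and 1.724 in KO, against 1.759, 1.742 and 1.756 in WT. Its means of 1.735 ± 0.0098 in KO and 1.752 ± 0.0091 in WT (SD, n = 3 each) were close, with WT library 2 inside the KO range. Within pairs of the same column number the ratio was lower in KO in 3 of 3, with differences, KO minus WT, of -0.0158, -0.00375 and -0.0322. That count also depends on the pairing, since the ratio of KO library 1 was above that of WT library 2.

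Other short transcripts had higher values in KO as well. Ribosomal protein messenger RNAs are short: the annotated transcript of the tested members had a median of 751 bases, against 2732 bases for the other tested genes, and 59 of the 77 members had at most 1000 bases. Among the 1463 tested genes of at most 1000 bases that are not members, the median log2 fold change was 0.074, and 67.5% had a value above 0. The median was smaller for longer genes, at 0.045 over 3420 genes from 1000 to 2000 bases, 0.0041 over 5840 genes from 2000 to 4000 bases and -0.051 over 4110 longer genes, of which 30.9% were above 0. After a smooth trend on length, fitted over 14910 tested genes, was subtracted, the median of the members was 0.0062 and 42 of 77 were above 0. This setting was chosen after the data had been seen. The trend itself stood at a median of 0.065 over the members.

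**Figure D3:**
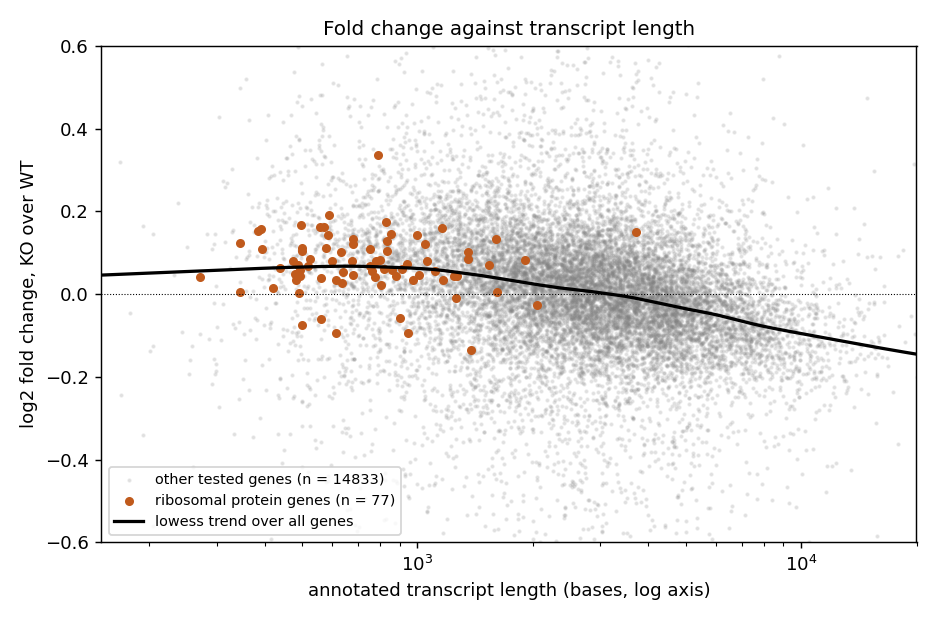
Log2 fold change, KO over WT, against annotated transcript length in bases on a log axis, for 77 ribosomal protein genes (orange) and 14833 other tested genes (grey), with a lowess trend over all of them (line); 289 other genes lie beyond 0.6 and are not drawn. The trend is above 0 for short transcripts and below 0 for long ones, and the orange points lie on both sides of it.

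Rps4l was the member with the largest fold change and the smallest p. Its row holds 912, 839 and 778 counts in KO libraries, against 635, 657 and 725 counts in WT libraries. That is 48.4, 48.0 and 45.8 CPM in KO, against 33.7, 39.1 and 39.9 CPM in WT. All 3 KO libraries thus lay above all 3 WT libraries. The means were 47.4 ± 1.42 CPM in KO and 37.6 ± 3.38 CPM in WT (SD, n = 3 each), the log2 fold change was 0.34 (SE 0.0703, 95% interval 0.19 to 0.48), and the edgeR adjusted p was 0.192. DESeq2 called it (adjusted p 0.0375), and so did edgeR without a low-count filter (0.000637) and edgeR without WT library 3 (0.0223). With the column numbers as a block the edgeR adjusted p was 0.0508. Of the 18 alternative settings, 3 called Rps4l. Its edgeR adjusted p was 0.999969 with the acinar level as a covariate, a fit that cannot cleanly separate that level from genotype. The smallest edgeR adjusted p of any member was 0.833 without KO library 2, 0.357 without WT library 1 and 0.331 without WT library 2. It was 0.227 without KO library 1, and 0.279 by limma-voom. Over the alternatives the log2 fold change of Rps4l ranged from 0.25 to 0.39. After the length trend it was 0.27.

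Rps4l is annotated in RefSeq as a transcribed pseudogene and in GENCODE as a processed one. It lies at chr6:148354656-148355598 on the plus strand of GRCm38, with exons that cover 943 bases, of which the transcript used here has 789. Its sequence is related to the coding sequence of Rps4x, the X-linked gene of the small-subunit protein eS4, with 79.9% of aligned bases identical. The first 60 bases of the Rps4l transcript and of the Rps4x coding sequence are shown with the 7 bases that differ in capitals, because the difference sets how well reads of this pair can be told apart.
Rps4l: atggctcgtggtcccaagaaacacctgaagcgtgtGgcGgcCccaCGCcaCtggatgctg
Rps4x: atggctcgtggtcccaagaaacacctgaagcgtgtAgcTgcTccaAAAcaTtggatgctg
The pair shares 0 windows of 50 bases. Of the 740 such windows of the Rps4l transcript, however, 133 occur in 1 other annotated gene, a pseudogene, and 82.0% are unique. Rps4x had 122, 124 and 130 CPM in KO, against 118, 123 and 127 CPM in WT, with a log2 fold change of 0.03 (edgeR adjusted p 0.852). Rps4l took 28.3%, 27.9% and 26.0% of the counts of the pair in KO, against 22.2%, 24.2% and 23.9% in WT. The means of 27.4 ± 1.22% in KO and 23.4 ± 1.06% in WT (SD, n = 3 each) gave p = 0.1 in a two-sided exact permutation test, where 3 against 3 can give no smaller p, and 0.3 adjusted over the 6 pairs tested. The exact 95% interval of the share reached down to 24.5% in KO library 3 and up to 25.8% in WT library 2, so these 2 libraries overlapped within counting error. Rps4l lies inside the span of Tmtc1, a gene on the other strand. Tmtc1 had 52.2, 50.5 and 49.9 CPM in KO, against 53.8, 48.2 and 47.9 CPM in WT (log2 fold change 0.03, edgeR adjusted p 0.919). The libraries were strand-specific, but the strand setting of the counting is not given in the sources used here, so reads of Tmtc1 from the opposite strand in the Rps4l row are possible and their part was not tested.

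**Figure D4:**
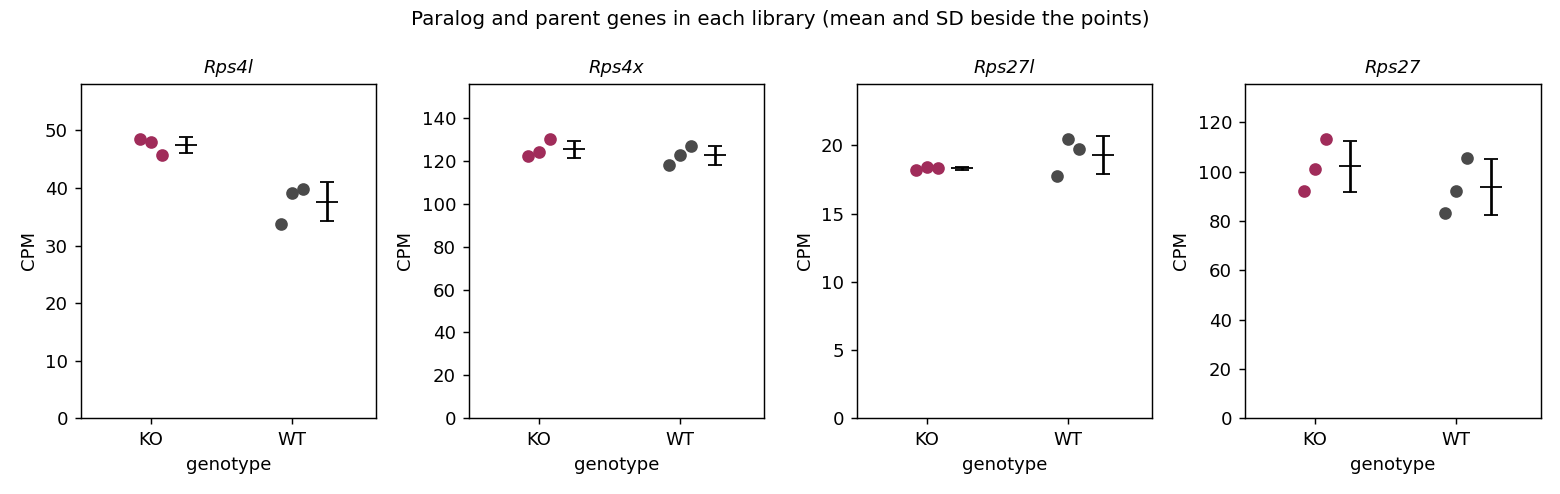
CPM of Rps4l, Rps4x, Rps27l and Rps27 in each KO and WT library (points), with the mean and SD beside them; each vertical axis starts at 0. The Rps4l points of KO (45.8 to 48.4 CPM) lie above those of WT (33.7 to 39.9 CPM), and the groups overlap for the other genes.

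Among the small-subunit genes next in order of p, Rps13, of the protein uS15, had 96.2, 111 and 107 CPM in KO, against 84.2, 94.4 and 96.8 CPM in WT. Its log2 fold change was 0.19 (SE 0.0636), and the groups overlapped at KO library 1. Rps2, whose product lines the entry of the messenger RNA channel, had 176, 192 and 181 CPM in KO, against 160, 169 and 168 CPM in WT (log2 fold change 0.14). Every KO value of Rps2 was above every WT value. Rps26, whose product lies at the exit of that channel, had 126, 134 and 130 CPM in KO, against 119, 120 and 120 CPM in WT (log2 fold change 0.12), again without overlap. Of the large subunit, Rpl30 had 93.8, 110 and 112 CPM in KO, against 90.5, 93.9 and 97.9 CPM in WT (log2 fold change 0.16). Rpl10a, of the mobile L1 stalk beside the exit site of transfer RNA, had 49.4, 59.2 and 53.7 CPM in KO, against 46.7, 50.1 and 47.1 CPM in WT (log2 fold change 0.17). In both genes KO library 1 lay within the WT range. The edgeR adjusted p of these 5 genes ranged from 0.319 to 0.415. Rps20, Rpl8, Rpl36, Rpl37a and Rps29 completed the 11 members with an unadjusted p under 0.05.

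Of the 8 members with a lower value in KO, 0 had an unadjusted p under 0.05. Rpl35, beside the exit of the peptide tunnel, had 41.8, 40.7 and 43.7 CPM in KO, against 42.4, 46.2 and 46.3 CPM in WT (log2 fold change -0.09, SE 0.0646, edgeR adjusted p 0.608). Rpl23a, at the same exit, where signal recognition particle docks, had 62.8, 63.5 and 64.2 CPM in KO, against 66.1, 68.5 and 64.0 CPM in WT (log2 fold change -0.06). Both genes overlapped between the groups. Rpl27 had a mean of 15.4 ± 1.46 CPM in KO and 16.4 ± 0.253 CPM in WT (SD, n = 3 each), and Rpl21 had 159 ± 7.83 CPM in KO and 166 ± 7.80 CPM in WT (SD, n = 3 each). Their log2 fold changes were -0.09 and -0.06, with edgeR adjusted p of 0.748 and 0.75.

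By role in the ribosome, 0 genes of any group were called. The 4 genes of the stalk that recruits elongation factors, Rplp0, Rplp1, Rplp2 and Rpl12, had log2 fold changes of 0.10, 0.10, 0.01 and 0.04. Rplp0, the stalk's base, stood at 332 ± 8.64 CPM in KO and 309 ± 22.5 CPM in WT (SD, n = 3 each). The 3 proteins nearest the peptidyl transferase centre, of Rpl3, Rpl8 and Rpl10, had a median of 0.085, and the 8 around the peptide tunnel, from Rpl4 to Rpl35, had 6 values above 0 and a median of 0.055. The 4 small-subunit genes of the decoding and P site, Rps15, Rps16, Rps18 and Rps23, all had values above 0, with a median of 0.065. The 2 proteins that bind 5S ribosomal RNA and, when free, the p53 regulator MDM2 went apart, with Rpl5 at -0.03 (edgeR adjusted p 0.904) and Rpl11 at 0.10 (edgeR adjusted p 0.558). Rps6, the substrate of S6 kinase downstream of mTORC1, had 219, 232 and 223 CPM in KO, against 219, 211 and 224 CPM in WT (log2 fold change 0.04, edgeR adjusted p 0.813). Rpsa, which also serves as a laminin receptor, had 221 ± 19.1 CPM in KO and 201 ± 17.0 CPM in WT (SD, n = 3 each; log2 fold change 0.13). Rps27a, which encodes a fusion of ubiquitin to a ribosomal protein, had a log2 fold change of 0.03 (edgeR adjusted p 0.922).

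Paralogs of ribosomal protein genes, which in mice are often tied to particular tissues, were expressed at widely different levels. Rpl3l, known from skeletal muscle and heart, had the lowest CPM of the tested members, with 1.38, 1.77 and 1.88 CPM in KO, against 2.02, 1.73 and 1.76 CPM in WT. It held 0.859 ± 0.102% of the counts of Rpl3 and Rpl3l in KO and 0.998 ± 0.101% in WT (SD, n = 3 each). Rpl10l and Rpl39l, known from the testis, had 0 counts in all 6 libraries. The floor of 3 counts is 0.158 to 0.180 CPM, depending on the library. Rps27l, a target of p53, had 18.2, 18.4 and 18.3 CPM in KO, against 17.8, 20.4 and 19.7 CPM in WT (log2 fold change -0.08, edgeR adjusted p 0.781). Its parent Rps27 had 92.2, 101 and 113 CPM in KO, against 83.4, 92.3 and 106 CPM in WT (log2 fold change 0.12, edgeR adjusted p 0.682). The first 60 coding bases of this pair follow, with the 18 that differ in capitals, since the pair is less alike than Rps4l and Rps4x (76.2% identity).
Rps27l: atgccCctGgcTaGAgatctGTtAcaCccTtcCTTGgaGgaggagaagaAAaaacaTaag
Rps27: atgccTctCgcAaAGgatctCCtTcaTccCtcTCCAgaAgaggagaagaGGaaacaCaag
Rps27l held 15.3 ± 1.26% of the counts of the pair in KO and 17.1 ± 1.27% in WT (SD, n = 3 each; exact two-sided permutation p 0.2, adjusted 0.3). Outside the naming rule, Rpl36al held 46.8 ± 1.01% of the counts of Rpl36a and Rpl36al in KO and 48.0 ± 0.217% in WT (SD, n = 3 each; exact p 0.2, adjusted 0.3). Rpl22l1 held 5.61 ± 1.16% of its pair with Rpl22 in KO and 5.48 ± 0.0974% in WT, and Rpl7l1 held 15.4 ± 1.17% of its pair with Rpl7 in KO and 15.4 ± 1.03% in WT (SD, n = 3 each). Of the 6 pairs tested, the Rps4l pair alone had groups that did not overlap.

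Levels of the members within a library differed far more than the genotypes did. Per transcript length, the median level over the 6 libraries was 155 CPM per kb, with quartiles of 89.6 and 217. Rpl4, a protein of the peptide tunnel wall, was highest at 591 CPM per kb. It had 895, 950 and 946 CPM in KO, against 852, 905 and 902 CPM in WT (log2 fold change 0.07), and held 8.39% of all member counts. Rps15 and Rps12 followed at 588 and 552 CPM per kb. Lowest were Rpl27 at 25.9, Rpl39 at 10.3 and Rpl3l at 1.28 CPM per kb. Rps20 is low per length, at 40.4 CPM per kb, on an annotated transcript of 3706 bases, the longest of the members. The level here is what the counting assigned to each row.

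That assignment matters for this family, because mammalian genomes carry many processed copies of these genes. RefSeq names 319 pseudogenes after the 83 members, up to 24 for a gene, of which 23 are rows of the count table. Windows of 50 bases that occur in no other gene of GENCODE M21 made up a median of 46.5% of a member's transcript and under 50% for 47 members. They made up 100% for 3 members and 1.35% for Rps27. How the counting treated reads with several positions is not given in the sources used here. Level per length and this measure were only weakly related, as a description of genes counted in the same libraries. The 24 tested members with at most 25% unique windows had a median of 142 CPM per kb, the 21 with 25% to 50% had 132 and the 32 above 50% had 164 (Spearman rho over the 77 genes -0.0265). The median log2 fold change of these groups of genes was 0.075, 0.058 and 0.076. In addition 29 members hold 58 small nucleolar RNA genes within their span.

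**Figure D5:**
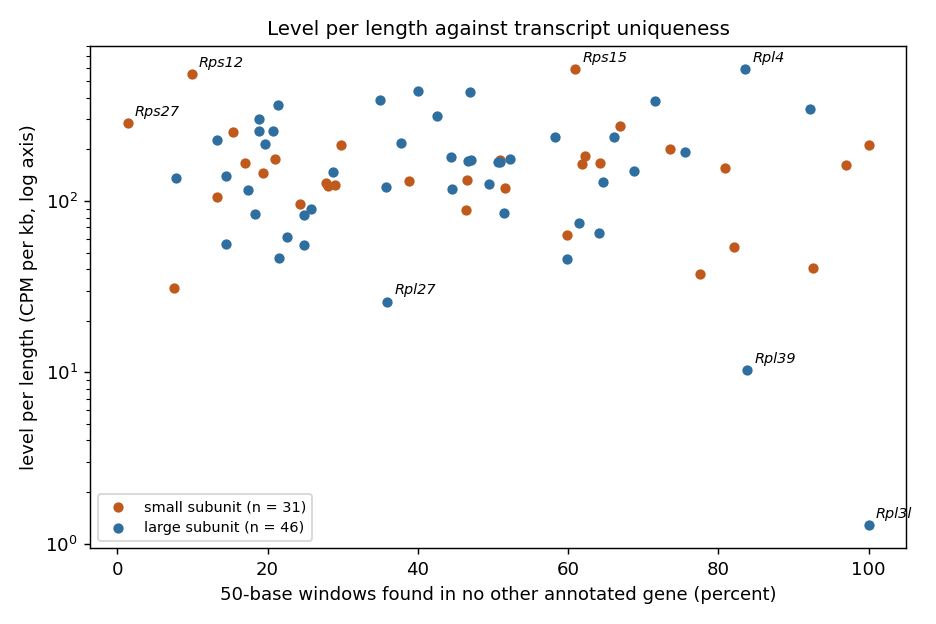
Level per length (CPM per kb of transcript, mean of the 6 libraries, log axis) against the percent of 50-base windows of the transcript found in no other annotated gene, for 31 small-subunit and 46 large-subunit genes. The points spread over the whole width (Spearman rho -0.0265), and Rpl3l at 1.28, Rpl39 at 10.3 and Rpl27 at 25.9 CPM per kb lie lowest.

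The 6 untested members were nearly without counts. Rpl28 had 0, 0 and 0 counts in KO, against 1, 1 and 0 counts in WT. It encodes a standard part of the large subunit and lies at chr7:4792874-4795066 on GRCm38. A gene near it was counted: Kmt5c had 1254, 1249 and 1217 counts in KO, against 1209, 1172 and 1188 counts in WT. Unique windows make up 49.5% of the Rpl28 transcript. The row was near 0 in both genotypes, and why it is nearly empty was not tested. Among the other untested rows, Rpl32l had 12 counts in all and Rpl6l, a pseudogene in RefSeq, had 4.

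Other genes of protein synthesis give the setting. Of 78 mitochondrial ribosomal protein genes, all tested, 65 had a higher value in KO. Their median log2 fold change was 0.068. edgeR called 0 of them, with 7 higher and 0 lower at an unadjusted p under 0.05, and limma-voom called 0, as did DESeq2, which gave an adjusted p to 7 of the 78. The 7 ribosomal protein genes outside the naming rule, among them Fau (0.13) and Rack1 (0.06), had a median of 0.042, with 6 above 0. Of 42 translation factor genes 27 had higher values, with a median of 0.023. edgeR called 0 of these, with 3 higher and 2 lower at an unadjusted p under 0.05, and DESeq2 and limma-voom also called 0. Among these Eif1, which guards start codon choice, had 115, 126 and 125 CPM in KO, against 103, 98.8 and 114 CPM in WT (log2 fold change 0.21, edgeR adjusted p 0.27). Eif4g1, the long scaffold of the cap-binding complex, had 461, 422 and 428 CPM in KO, against 497, 543 and 452 CPM in WT (log2 fold change -0.19, edgeR adjusted p 0.335). The groups of Eif1 did not overlap and those of Eif4g1 did. Eif6, which keeps free large subunits from joining, had 26.9 ± 1.67 CPM in KO and 23.7 ± 0.179 CPM in WT (SD, n = 3 each; log2 fold change 0.18).

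Ribosome assembly genes had more lower than higher values. The part of transcript length in this list, and in the mitochondrial and translation factor lists, was not tested. Of 66 genes for RNA polymerase I, ribosomal RNA processing and subunit assembly, 24 had a higher and 42 a lower value in KO. Their median log2 fold change was -0.032, edgeR, DESeq2 (22 genes with an adjusted p) and limma-voom called 0, and 1 gene was higher and 2 were lower at an unadjusted p under 0.05 in edgeR. Polr1a, the largest subunit of RNA polymerase I, had 41.4 ± 0.940 CPM in KO and 47.1 ± 2.92 CPM in WT (SD, n = 3 each; log2 fold change -0.18, edgeR adjusted p 0.337). Utp20, of the small-subunit processome, had a log2 fold change of -0.22, and Polr1d, a small subunit shared by polymerases I and III, had 0.16. Of 23 genes around mTORC1, MYC and p53, 12 had higher values, with a median of 0.0082. The same 3 tools called 0 of them, and in edgeR 1 was higher and 1 lower at an unadjusted p under 0.05. Rps6kb1, which encodes an S6 kinase, had 65.7, 63.9 and 64.8 CPM in KO, against 73.1, 74.4 and 67.2 CPM in WT (log2 fold change -0.14, edgeR adjusted p 0.394). Its relative Rps6kb2 had a log2 fold change of 0.16, and Maf1, a repressor of RNA polymerase III, one of 0.15. Among the genes as abundant as the tested members, 8722 in number, 49.2% had a higher value in KO, with a median of -0.0024.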

How the data were processed

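RNA of mouse pancreatic islets was measured in 3 KO and 3 WT libraries. Per the labels' protocols, libraries that keep the strand were made from column-purified total RNA. Trimmomatic 0.39, STAR 2.7.10b and featureCounts 2.0.3 were used with mm10, per the submitters' processing notes. The table that the authors deposited holds raw counts for each gene. Not given in the sources used here are its annotation, its strand setting and how it treated multi-mapping reads. KO columns are numbered 1 to 3 while the titles number the KO samples 4 to 6, so KO libraries carry column numbers here.

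From the counts, edgeR 4.0.16 in R 4.3.3 was run over the whole table: filterByExpr (minimum count 10, minimum total 15), TMM factors (0.985 to 1.02), robust quasi-likelihood test, two-sided, Benjamini-Hochberg adjustment over 16240 genes, threshold 0.05. CPM were computed from the counts with these factors and without a pseudocount. Paralog shares were compared by exact permutation tests. DESeq2 1.42.0 and limma-voom (limma 3.58.1) were alternatives, as were other scalings and filters, an acinar covariate, leaving out libraries and a block by column number. The procedures were tested on simulated data. Within a genotype, any pair of libraries differed beyond sampling noise (lowest chi-square 4.51 for each degree of freedom).

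Libraries with the same column number deviated together, with correlations of 0.187, 0.184 and 0.184 for numbers 1 to 3. The numbers were therefore taken to pair the libraries, on the data alone, since no label states a pairing. The deviations were taken from the mean of each genotype, so these correlations are not independent of each other. The main edgeR fit and the permutation tests did not use this pairing. It entered only the side-by-side differences and the alternative fit with a block. The fit with that block called 30 genes (3 higher, 27 lower) and 0 members.

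Positions, lengths and windows came from GENCODE M21 on GRCm38, with the shortest principal coding transcript per gene, and start sites from RefSeq. All 83 members matched both by gene symbol, and 61 of them had a RefSeq start site. The genes named are those with the 6 smallest p in each direction, the paralog pairs, genes of the stalk, of 5S binding and of ubiquitin fusions, the 3 highest and 3 lowest per length, Rps6, Rpsa and the 3 smallest p of the translation, assembly and signalling lists. Some genes that this rule takes are not reported here. Other genes were named after their values had been seen. The members and lists were chosen with earlier results of these data known.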

Additional observations from a re-analysis of the deposited data

How the results depend on the processing

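The median log2 fold change of the ribosomal protein genes ranged from 0.0062 after the length trend, near 0, to 0.12 without KO library 1. Against WT library 3 alone it was 0.029. No setting gave a median below 0. The main value of 0.069 was smaller than the pooled SD, 0.080, of the members' median deviation between libraries of a genotype. Leaving out 1 library in turn gave medians from 0.039 to 0.12. The number of members called was 0 in most settings and 1, Rps4l, under DESeq2, without a low-count filter and without WT library 3, so 0 to 1 when libraries were left out. Over all genes, in place of 2 calls, DESeq2 gave 62 of 6076 genes with an adjusted p (22 higher, 40 lower). The absence of a low-count filter gave 272 of 26754 genes (108 higher, 164 lower). Calls numbered 1 by limma-voom, 1 by edgeR without robust estimation, 0 with the acinar covariate and 30 with the replicate block by column number (3 higher, 27 lower). Leaving out libraries gave from 0 calls (without KO library 1 or KO library 2) to 114 calls of 16489 genes (without WT library 3). The cause of these differences was not tested. The block by column number changed no call of a member. Of the genes named outside the members, Eif1 was also called without a low-count filter, and Igf2r did not pass in the settings given with it. The difference in summed share ranged from 0.022 to 0.096 percentage points, each above 0. The comparison with WT library 3 alone has a lone WT sample, assumed to vary like the KO libraries.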
